A study of Homo sapiens with 10 samples.

Results

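The HOX genes of A375 cells were followed on 10 Clariom S human HT arrays, 5 from cells plated with doxycycline and 5 from control cells. A375 is an established human melanoma line. Both groups grew in the same medium and were frozen on day 4, the doxycycline group with the drug at 2 µg/ml. The series title names Omomyc, a mutant MYC domain that blocks MYC, but the labels describe no construct and no doxycycline-treated cells without Omomyc, so an effect of doxycycline alone cannot be told apart from one of Omomyc. The arrays of a group are labelled biological replicas, with no word on separate cultures, so the spread behind each p-value is that among these arrays and may be partly technical.

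The members were chosen by gene symbol, as every probe set (the group of probes that reads 1 gene) named HOXA, HOXB, HOXC or HOXD followed by a number. No measured value entered that rule, but the family was picked with results of these arrays known, so its counts describe it and are no independent evidence. It held 23 of the 17492 named genes, each with 1 probe set. They are 1 of 11 HOXA genes, 8 of 10 HOXB genes, 6 of 9 HOXC genes and 8 of 9 HOXD genes that RefSeq lists. The other 16 HOX genes were not analysed here.

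HOX genes encode homeodomain transcription factors that give cells their position along the body axis. In humans they lie in 4 clusters, HOXA on chromosome 7, HOXB on 17, HOXC on 12 and HOXD on 2. A number gives the place in the cluster, and genes of the same number in different clusters are paralogues, copies that descend from 1 ancestral gene. Low numbers (3′ end) act in the head and hindbrain, high numbers (5′ end) in the lower trunk, limbs and genital tract. Adult cells, melanocytes of the skin among them, keep a HOX pattern that reflects where they came from, held by Polycomb proteins (off) and KMT2 proteins (on).

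HOX genes moved in both directions in doxycycline-treated cells. In all, 10 HOX genes fell and 6 rose, so 16 of 23 were called, against 38.1% of all 18569 probe sets. A call means an adjusted p under 0.05 in limma, adjusted over all probe sets. Those called lower make up 17.2% of all probe sets and those called higher 20.9%. Nothing is read from these shares, because the family was picked with this contrast known. HOXD13 and HOXB9 fell most, 5.30-fold and 3.05-fold. HOXB6 and HOXB2 rose most, 1.80-fold and 1.57-fold. The median log2 fold change of the 23 was -0.11, beside 0.04 over all probe sets. It was -0.19 without doxycycline array 4. Among the 9 HOX genes whose probe sets averaged above the median signal, 5 rose and 3 fell, and the median was 0.34. As many probe sets lie below the median signal as above it. With only those above it kept, 5585 were called, against 7078 of all 18569. Most bright probe sets of any gene were thus called, a higher share than the 38.1% of all probe sets. The 38.1% is therefore no background for these 9 genes.

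Promoter windows are shown for 5 HOXD genes, because the largest block of falling neighbours lies there and because Omomyc is known to interfere with MYC at the E-box CACGTG, the site bound by MYC with MAX. The windows of 300 bases are from RefSeq, GRCh38.p14, plus strand, 5′ to 3′, and end shortly after the transcript start. Windows of HOXD13 (chr2:176092471-176092770), HOXD11 (chr2:176107030-176107329), HOXD10 (chr2:176116528-176116827) and HOXD8 (chr2:176129455-176129754) belong to genes that fell. HOXD3 (chr2:176157057-176157356) did not pass the test and lies outside that block. The windows of HOXD12 and HOXD4 are not printed, and HOXD9, which fell, had no window. All HOX windows with CACGTG are among the 5 printed. Capitals mark CACGTG, the TATA box TATAAA and the homeodomain core TAATTA on either strand.

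HOXD13: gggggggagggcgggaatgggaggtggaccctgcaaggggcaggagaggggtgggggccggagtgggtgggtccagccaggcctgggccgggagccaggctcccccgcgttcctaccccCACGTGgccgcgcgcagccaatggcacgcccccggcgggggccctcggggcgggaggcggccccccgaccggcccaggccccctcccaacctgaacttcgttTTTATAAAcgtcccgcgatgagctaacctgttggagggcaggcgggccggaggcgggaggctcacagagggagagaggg
HOXD11: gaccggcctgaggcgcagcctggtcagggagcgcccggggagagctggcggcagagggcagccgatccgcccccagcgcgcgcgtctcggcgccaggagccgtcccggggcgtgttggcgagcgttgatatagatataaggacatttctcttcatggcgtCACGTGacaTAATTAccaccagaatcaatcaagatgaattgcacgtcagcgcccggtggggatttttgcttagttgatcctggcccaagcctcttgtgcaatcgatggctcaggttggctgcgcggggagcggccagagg
HOXD10: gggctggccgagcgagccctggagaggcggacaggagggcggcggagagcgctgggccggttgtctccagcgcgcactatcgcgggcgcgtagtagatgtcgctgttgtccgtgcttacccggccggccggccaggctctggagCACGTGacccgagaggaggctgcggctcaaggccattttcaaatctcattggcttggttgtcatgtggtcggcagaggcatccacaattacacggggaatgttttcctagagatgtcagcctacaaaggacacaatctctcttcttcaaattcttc
HOXD8: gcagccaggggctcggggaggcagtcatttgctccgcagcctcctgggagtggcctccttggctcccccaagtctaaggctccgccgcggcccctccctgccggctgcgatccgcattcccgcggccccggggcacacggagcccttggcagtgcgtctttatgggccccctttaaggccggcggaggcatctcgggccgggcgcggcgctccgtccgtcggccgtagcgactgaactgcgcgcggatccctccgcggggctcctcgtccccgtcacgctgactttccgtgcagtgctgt
HOXD3: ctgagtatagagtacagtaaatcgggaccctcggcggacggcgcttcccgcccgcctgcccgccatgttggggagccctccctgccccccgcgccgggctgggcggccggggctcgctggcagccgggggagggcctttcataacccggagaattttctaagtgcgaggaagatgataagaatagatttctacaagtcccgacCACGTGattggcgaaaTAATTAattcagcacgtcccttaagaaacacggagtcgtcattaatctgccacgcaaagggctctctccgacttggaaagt

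CACGTG stood in 4 of the 9 HOX windows that the table holds, those of HOXD13, HOXD11, HOXD10 and HOXD3, and in 7.26% of all 35093 windows. It begins at position -131 in HOXD13, -90 in HOXD11, -106 in HOXD10 and -47 in HOXD3, counted from the transcript start. Of the genes with it, HOXD13, HOXD11 and HOXD10 fell, and HOXD3 did not pass (log2 fold change -0.03 ± 0.13, SE). Of those without it, HOXD8 (2.42-fold) and HOXA2 fell, and HOXD12, HOXD4 and HOXB1 did not pass. HOXD3, HOXD10 and HOXB1 gave dim signal in both groups, by a mark given below. Whether the motif bears on these changes was not tested. TATAAA stood in 1 of 9 HOX windows, that of HOXD13, where matches on both strands overlap, and in 11.5% of all windows. TAATTA stood in 2 of 9, HOXD11 and HOXD3, and in 4.84% of all. The windows of HOXD12, HOXD4, HOXA2 and HOXB1 hold none of these letters. Binding was not measured, and these matches are a description only. The 9 windows hold 4 to 34 CG pairs, with 34 in HOXD8 and 4 in HOXD4, beside a median of 14 over all windows.

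**Figure D1:**
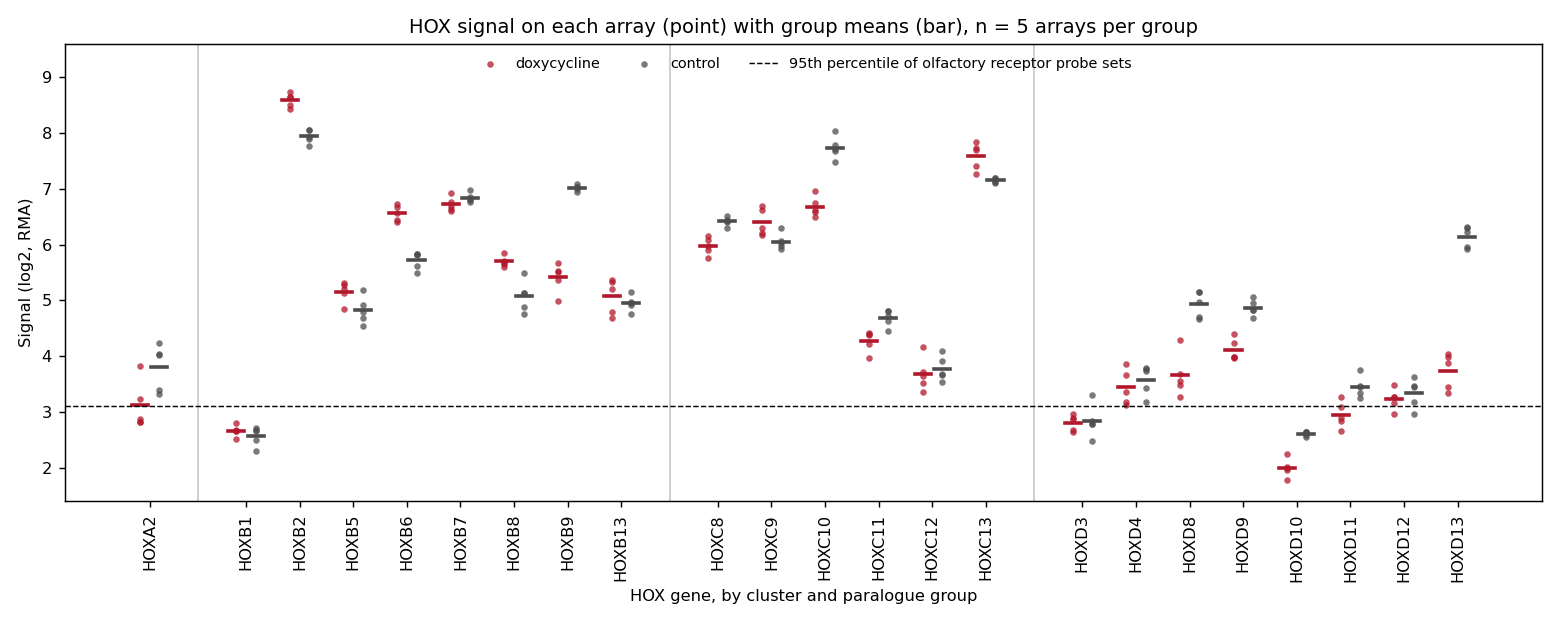
Signal of each HOX gene on each array (points, log2 RMA values), doxycycline arrays left and control arrays right, with group means as bars and 5 arrays per group. The dashed line is the 95th percentile of the olfactory receptor probe sets (3.10), a mark for dim signal. HOXD13, HOXB9, HOXD8 and HOXC10 have the largest differences of means downward, and HOXB6, HOXB2 and HOXB8 upward.

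How bright a gene is bears on its fold change, since signal near background compresses it. Olfactory receptor genes, which serve smell, gave a mark for dim signal: 95% of their 346 probe sets averaged under 3.10 log2 units. HOXB1, HOXD3 and HOXD10 averaged under this mark in both groups, and HOXD11 in doxycycline-treated cells only. The mark does not show absence, and levels are not ranked between genes because each probe set has its own brightness. SDs of the HOX genes over 5 arrays ran from 0.04 to 0.43 log2 units. The arrays had median signals of 5.02 to 5.10, and their number limits the precision.

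The label of the cells was checked on melanoma markers. MITF and SOX10, transcription factors of the melanocyte lineage, averaged 8.33 and 8.91 log2 units in doxycycline-treated cells and 7.12 and 8.71 in control cells. PMEL and MLANA, genes of the pigment organelle, stayed under the dim mark in both groups. Of 14 measured melanoma markers 6 rose and 3 fell, beside 20.9% higher and 17.2% lower over all probe sets. The risers were MITF, S100A1, PAX3, MIA, S100B and TYR, the last under the dim mark. The fallers were NGFR, the neural crest receptor (-1.04 ± 0.11), AXL, a receptor kinase of melanoma cells low in MITF (-0.63 ± 0.08), and TFAP2A (-0.38 ± 0.09). Of 7 fibroblast markers 5 rose, beside 20.9% of all probe sets, and the mean over the 7 was 5.00 to 5.12 log2 units on doxycycline arrays and 4.30 to 4.45 on control arrays. Rising among the 7 were PDGFRA (1.64 ± 0.14), LUM (1.52 ± 0.10), PDGFRB (1.16 ± 0.10), DCN (0.40 ± 0.12) and COL1A1 (0.32 ± 0.11). COL1A2 (0.04) and TWIST2 (-0.03) did not pass. None of the 7 averaged under the dim mark over all arrays. Fibroblasts are known for strong HOX expression. Neither the presence of fibroblasts nor the part of these genes in the HOX values was tested. Averaged over all arrays, 6 of 7 keratinocyte markers were under the mark, as were 5 of 7 leukocyte markers, 4 of 7 endothelial markers and 4 of 7 epithelial markers. Of the 7 in each list, 1 keratinocyte marker (KRT5), 1 endothelial marker (KDR) and 2 leukocyte markers (LYZ and CD14) rose, and 2 epithelial markers (KRT8 and ESRP1) fell. KDR, LYZ and KRT8 lay above the mark in both groups, and CD14 in doxycycline-treated cells only. In bulk RNA, fewer cells of a kind and less RNA per cell cannot be told apart.

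In the HOXD cluster 5 of 8 genes fell and none rose, beside 17.2% lower and 20.9% higher over all probe sets. All 5 lie in the 5′ part, from HOXD8 to HOXD13, where 5 of 6 measured genes fell. HOXD13, which shapes digits and the genital tract and is mutated in synpolydactyly, read 4.05, 3.44, 3.87, 3.99 and 3.34 log2 units on the doxycycline arrays, against 5.92, 6.31, 6.23, 5.96 and 6.29 on the control arrays. Every doxycycline array was far below every control array. The log2 fold change was -2.41 ± 0.14 (SE, adjusted p = 5.31e-09), which ranked 51 from the lowest of all probe sets.

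HOXD8, at the other end of that stretch, read 4.29, 3.27, 3.67, 3.55 and 3.49 log2 units with doxycycline and 4.97, 4.67, 5.15, 5.15 and 4.71 in control cells. Doxycycline array 1 was the highest of its group but below all control arrays, and the log2 fold change was -1.27 ± 0.16 (adjusted p = 1.72e-05). HOXD9, which helps pattern the upper limb and the sacral spine, read 3.98, 4.24, 3.96, 4.39 and 3.99 log2 units with doxycycline and 5.07, 4.68, 4.95, 4.83 and 4.83 in control cells. The groups did not overlap (-0.76 ± 0.10, adjusted p = 3.41e-05).

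HOXD10, a gene of the hindlimb and its motor neurons, read 2.24, 1.97, 1.99, 2.01 and 1.77 log2 units with doxycycline, against 2.54, 2.64, 2.64, 2.64 and 2.58 in control cells. The groups did not overlap (-0.61 ± 0.09, adjusted p = 5.05e-05), yet all 10 values were under the dim mark, so the level itself has no reading here. HOXD11, a forearm and kidney gene, averaged 2.95 ± 0.23 log2 units with doxycycline and 3.45 ± 0.18 in control cells (SD, n = 5), and fell (-0.50 ± 0.12, adjusted p = 0.00374) with groups that overlapped slightly.

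The remaining HOXD genes did not pass. HOXD12, between HOXD13 and HOXD11, had a log2 fold change of -0.11 with a 95% interval of -0.38 to 0.16. HOXD4 had -0.14 (-0.47 to 0.19) and HOXD3 -0.03 (-0.30 to 0.25). A fall of the size seen for HOXD8 lies outside all of these intervals, though HOXD3 is under the dim mark and HOXD12 and HOXD4 are close above it, where changes are compressed.

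In the HOXB cluster 4 of 8 genes rose and 1 fell, beside 20.9% higher and 17.2% lower over all probe sets. The risers HOXB2, HOXB5, HOXB6 and HOXB8 lie in the 3′ and middle part, and the gene next to HOXB8, HOXB9, fell. HOXB6 read 6.41, 6.57, 6.45, 6.68 and 6.73 log2 units on doxycycline arrays, against 5.49, 5.83, 5.62, 5.84 and 5.82 on control arrays. The groups lay clearly apart, with a log2 fold change of 0.85 ± 0.10 (adjusted p = 5.36e-06). HOXB2, a hindbrain gene that acts downstream of retinoic acid and HOXB1, read 8.75, 8.65, 8.43, 8.50 and 8.64 with doxycycline and 7.93, 8.06, 7.90, 7.78 and 8.05 log2 units in control cells. All doxycycline arrays were higher (0.65 ± 0.09, adjusted p = 2.88e-05).

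HOXB8, known in blood progenitors and, in mice, in microglia, read 5.86, 5.67, 5.61, 5.71 and 5.65 log2 units with doxycycline, against 4.88, 5.13, 5.14, 4.75 and 5.49 in control cells. Control array 5 came closest to the doxycycline arrays without reaching them (0.62 ± 0.12, adjusted p = 7.45e-04). HOXB5, a gene of gut neurons and vessels, averaged 5.15 ± 0.19 log2 units with doxycycline and 4.82 ± 0.24 in control cells, groups that overlapped. Its call was narrow (0.33 ± 0.12, adjusted p = 0.0469). The call was lost without control array 1, 2, 3 or 4 (adjusted p = 0.0835, 0.125, 0.108 and 0.0555) and without doxycycline array 1, 2, 3 or 5 (adjusted p = 0.0755, 0.101, 0.110 and 0.0688).

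HOXB9, which patterns the thoracic skeleton and the mammary gland, read 5.67, 5.51, 5.37, 5.00 and 5.53 log2 units with doxycycline, against 7.00, 7.03, 6.95, 7.09 and 7.04 in control cells. The control arrays sat within a narrow band and every doxycycline array lay well below it. Its log2 fold change was -1.61 ± 0.11 (adjusted p = 2.40e-08), which ranked 255 from the lowest of all probe sets. HOXB7, often raised in melanoma and breast cancer, did not pass, at 6.73 ± 0.13 log2 units with doxycycline and 6.84 ± 0.08 in control cells (SD, n = 5), with a 95% interval of -0.29 to 0.07 for the log2 fold change. Also without a call were HOXB13, a prostate gene (0.13, interval -0.16 to 0.41), and HOXB1, a hindbrain gene under the dim mark (0.09, interval -0.11 to 0.29).

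**Figure D2:**
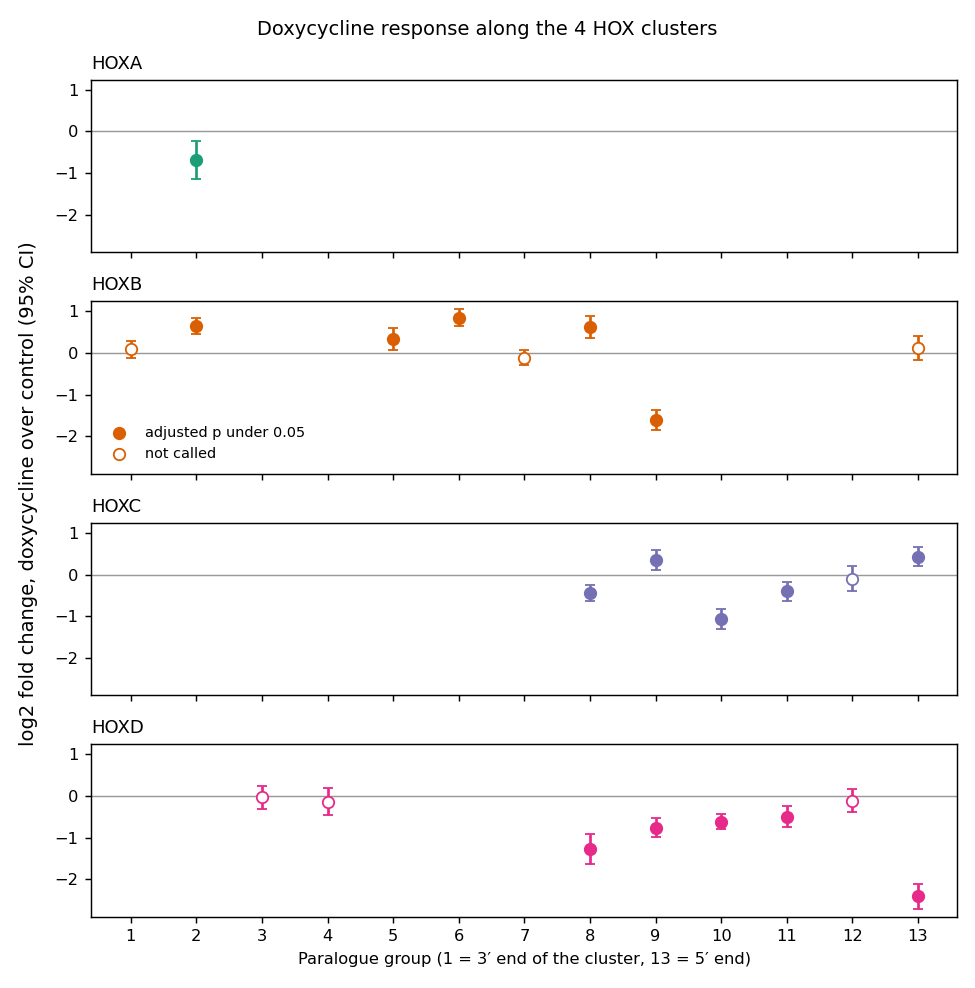
Log2 fold change of doxycycline over control (y axis, with 95% confidence intervals) for each measured HOX gene by paralogue group (x axis, 1 at the 3′ end and 13 at the 5′ end), 1 panel per cluster. Filled points passed the test and open points did not. HOXB has its 4 risers in groups 2 to 8 and its fall at group 9, HOXC has genes on both sides of 0, and HOXD is lower from group 8 on except at group 12.

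The HOXC cluster was mixed, with 3 of 6 genes lower and 2 higher, beside 17.2% lower and 20.9% higher over all probe sets. HOXC10, a gene of lumbar motor neurons and the hindlimb, read 6.59, 6.97, 6.63, 6.74 and 6.50 log2 units on doxycycline arrays and 7.68, 7.71, 7.79, 8.04 and 7.49 on control arrays. The groups lay clearly apart, and the log2 fold change was -1.06 ± 0.11 (adjusted p = 2.36e-06). HOXC8, a thoracic gene, read 5.90, 5.76, 6.08, 5.98 and 6.15 log2 units with doxycycline, against 6.30, 6.45, 6.40, 6.51 and 6.43 in control cells. The groups did not overlap, and the difference was small (-0.44 ± 0.09, adjusted p = 8.86e-04).

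HOXC11 read 4.40, 4.41, 4.38, 3.97 and 4.23 log2 units with doxycycline and 4.73, 4.45, 4.81, 4.63 and 4.81 in control cells. It fell (-0.41 ± 0.10, adjusted p = 0.00616), with control array 2 close to the highest doxycycline arrays. HOXC13, which drives hair and nail keratin genes, read 7.83, 7.74, 7.27, 7.41 and 7.70 log2 units with doxycycline, against 7.11, 7.19, 7.12, 7.15 and 7.20 in control cells. It rose (0.43 ± 0.11, adjusted p = 0.00426), although doxycycline array 3 was only just above the highest control array.

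HOXC9, a thoracic gene that sits between the falling HOXC10 and HOXC8, averaged 6.40 ± 0.24 log2 units with doxycycline and 6.06 ± 0.14 in control cells (SD, n = 5). It rose (0.34 ± 0.12, adjusted p = 0.0277) with overlapping groups, and the call was lost without control array 2, 3 or 4 (adjusted p = 0.0608, 0.0705 and 0.0516) or doxycycline array 2 or 3 (adjusted p = 0.0745 and 0.0768). HOXC12 did not pass (-0.10, interval -0.40 to 0.21).

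The HOXA cluster was represented by HOXA2, which patterns the hindbrain and the second pharyngeal arch that forms parts of the ear. It read 2.83, 2.87, 3.83, 2.83 and 3.24 log2 units on doxycycline arrays, against 3.31, 4.04, 3.39, 4.03 and 4.24 on control arrays. The groups overlapped, since doxycycline array 3 lay above control arrays 1 and 3, and both groups had the widest spread of the family (SD 0.43 and 0.42). HOXA2 fell (-0.68 ± 0.21, adjusted p = 0.0190), and the call was lost without control array 5 (adjusted p = 0.0537) or doxycycline array 4 (adjusted p = 0.0502). Its mean with doxycycline, 3.12 log2 units, was just above the dim mark of 3.10.

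By position, genes of the 5′ groups 9 to 13, which are 12 of the 23 measured, made up most of the falls. For the counts by position, the shares over all probe sets are 17.2% lower and 20.9% higher. Among paralogue groups 9 to 13, 7 of 12 genes fell and 2 rose (HOXC9 and HOXC13), with a median log2 fold change of -0.45. In groups 5 to 8, 3 of 6 rose, all from HOXB, and 2 fell, HOXC8 and HOXD8, with a median of 0.11. In groups 1 to 4, 1 of 5 rose (HOXB2), 1 fell (HOXA2) and the median was -0.03. Cluster medians were -0.56 for HOXD, -0.25 for HOXC and 0.23 for HOXB. Cluster and position are mixed in these counts, since 6 of the 8 HOXB genes lie in groups 1 to 8 and all HOXC genes in groups 8 to 13.

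Paralogues of 1 number did not always move alike. In group 8, HOXB8 rose while HOXC8 and HOXD8 fell. In group 9, HOXC9 rose while HOXB9 and HOXD9 fell. HOXC10 and HOXD10 both fell, as did HOXC11 and HOXD11, and neither HOXC12 nor HOXD12 passed. In group 13 the log2 fold changes were -2.41 for HOXD13, 0.43 for HOXC13 and 0.13 for HOXB13, the last without a call. Homeobox sequences are alike among paralogues, and hybridisation to a paralogue's RNA was not tested.

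Of the 23, 4 genes passed with a fold of at least 2, all lower: HOXD13, HOXB9, HOXD8 and HOXC10, beside 4.04% of all probe sets. No HOX gene rose 2-fold, beside 2.43% of all. Groups did not overlap for 12 of the 23, beside 28.6% of all probe sets. The 4 called genes with overlapping groups were HOXA2, HOXB5, HOXC9 and HOXD11.

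**Figure D3:**
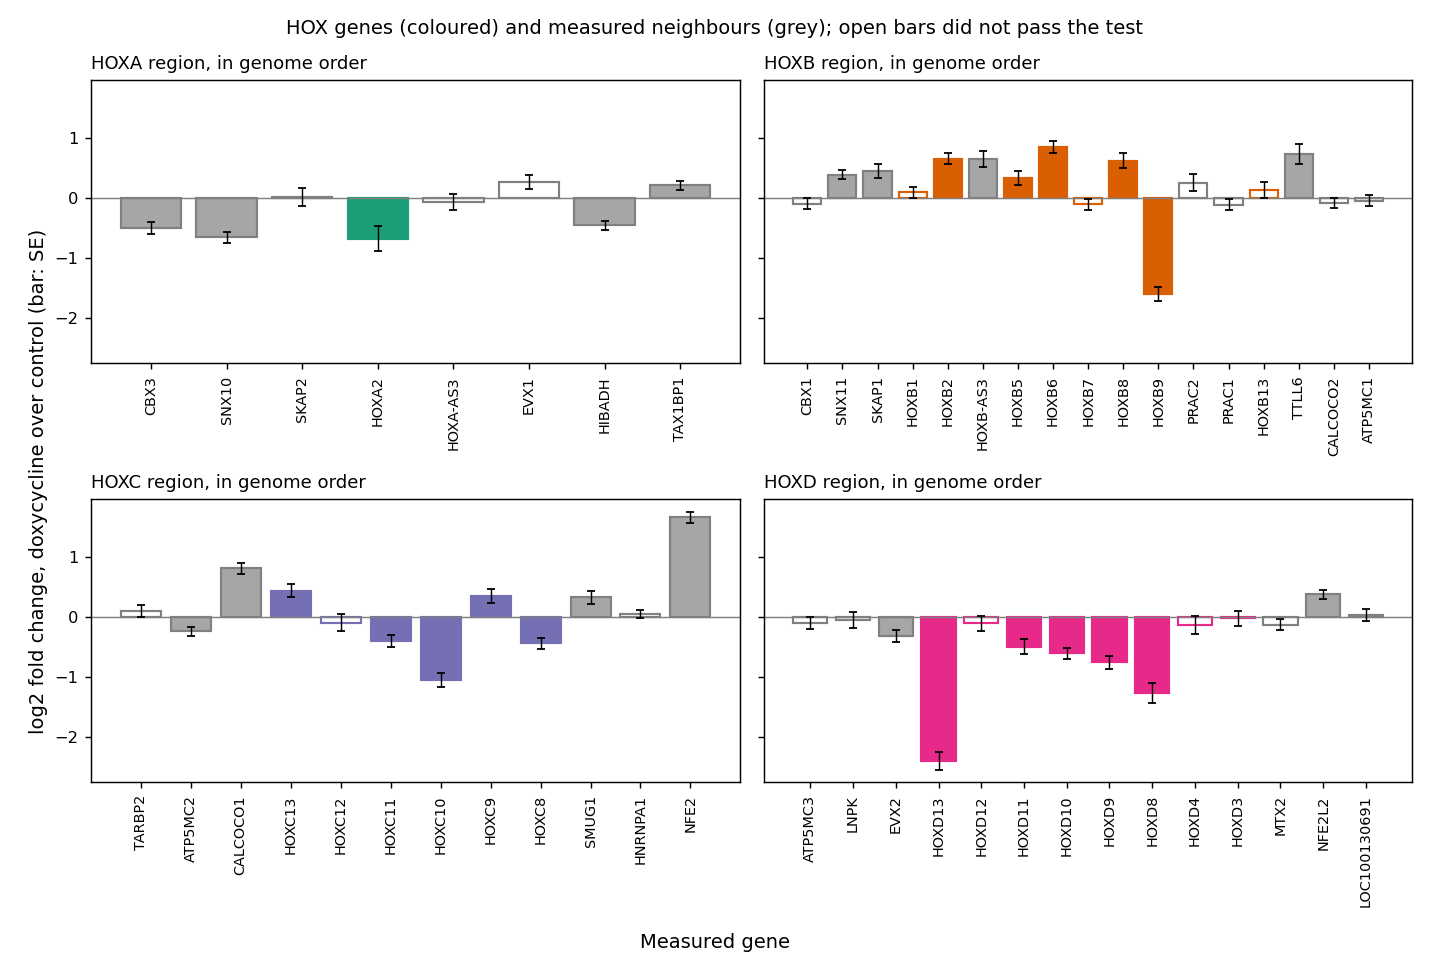
Log2 fold change of doxycycline over control (bars, ± SE) for HOX genes (coloured) and the measured genes within or next to each cluster (grey), in genome order from left to right. Filled bars passed the test and open bars did not. HOXB9 lies between HOXB8, which rose, and PRAC2, which did not pass, and the genes outside the clusters go both ways.

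Measured genes beside the HOX genes were taken by a position rule, 3 on each side of a cluster and all within it, set after HOX values were known. Of 28 such genes 9 rose and 5 fell, beside 20.9% higher and 17.2% lower over all probe sets. HOXB-AS3, an antisense RNA listed between HOXB2 and HOXB5, rose to 4.29 ± 0.10 log2 units in doxycycline-treated cells, against 3.64 ± 0.32 in control cells (SD, n = 5). Its log2 fold change was 0.65 ± 0.13 (SE, adjusted p = 9.86e-04), and overlap of its probes with HOXB transcripts was not tested. PRAC1 and PRAC2, between HOXB9 and HOXB13, did not pass and were under the dim mark. On the flanks of HOXB, SNX11 (0.38 ± 0.08), SKAP1 (0.44 ± 0.12) and TTLL6 (0.73 ± 0.17) rose and no measured gene fell. SKAP1 was under the dim mark in both groups.

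At HOXD, the homeobox gene EVX2 next to HOXD13 fell by 0.32 on the log2 scale (adjusted p = 0.0196) and was under the dim mark, whereas LNPK beyond it (-0.05) and MTX2 at the other end (-0.13) did not pass. NFE2L2, the stress response factor gene just past MTX2, rose (0.38 ± 0.07). At HOXC, CALCOCO1 beside HOXC13 rose (0.80 ± 0.09), as did NFE2, a blood transcription factor gene past HOXC8 (1.66 ± 0.09, adjusted p = 2.57e-09). NFE2 was under the dim mark in control cells. Also beside HOXC, SMUG1 rose (0.32 ± 0.11) and ATP5MC2 fell (-0.24 ± 0.08). At HOXA, SNX10 (-0.66 ± 0.09) and CBX3, a heterochromatin protein (-0.51 ± 0.10), fell, as did HIBADH at the other end (-0.46 ± 0.08). TAX1BP1, past HIBADH, rose (0.21 ± 0.07), and HOXA-AS3 within the cluster did not pass (-0.08).

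**Figure D4:**
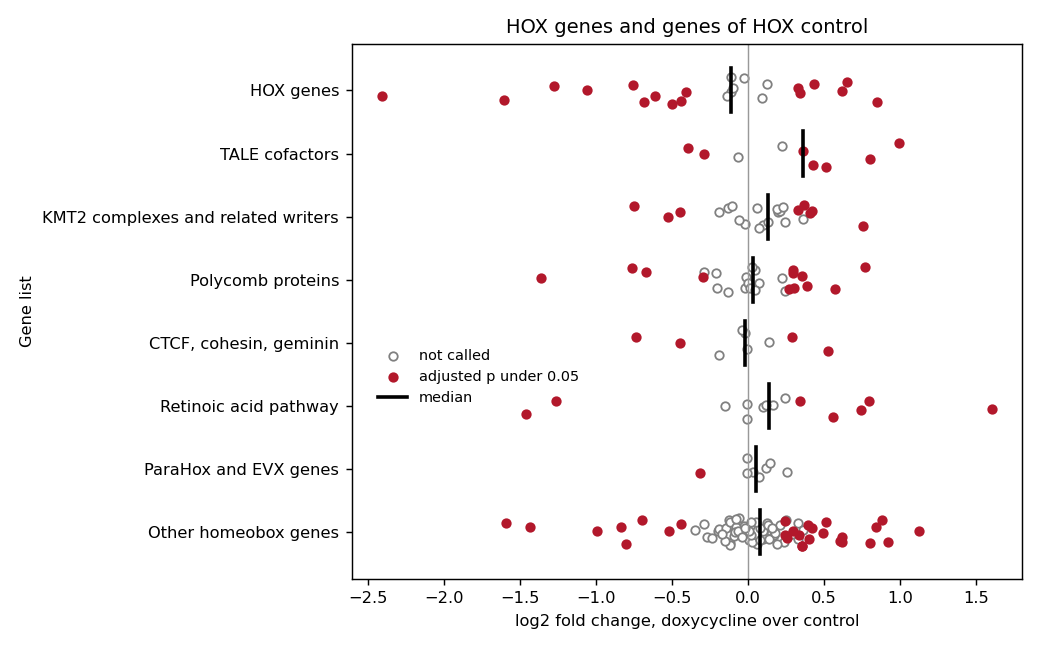
Log2 fold change of doxycycline over control (x axis) for each gene of the lists (y axis). Red points passed the test, open points did not, and black bars are medians. The list drawn as KMT2 complexes and related writers also holds demethylases and elongation factors. HOX genes reach further down (-2.41) than any gene of the other lists shown, and TALE cofactors have the highest median of the 8 lists drawn (0.36).

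Many, but not all, TALE homeodomain proteins bind DNA together with HOX proteins. Of 9 TALE genes measured 5 rose and 2 fell, beside 20.9% higher and 17.2% lower over all probe sets. PBX3 (0.99 ± 0.10), PBX2 (0.80 ± 0.08), MEIS3 (0.51 ± 0.11) and TGIF2 (0.43 ± 0.10) rose most. The fallers were PKNOX1 (-0.39 ± 0.11) and MEIS1 (-0.29 ± 0.10), a HOX partner in blood and leukaemia. PBX3 averaged 7.30 ± 0.15 log2 units with doxycycline and 6.31 ± 0.18 in control cells (SD, n = 5). Their median log2 fold change was 0.36, against 0.04 over all probe sets.

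Polycomb genes, which silence HOX clusters, moved in either direction: 8 of the 26 measured rose and 4 fell. That is 46.2% called, near the 38.1% of all probe sets. EZH2, the main Polycomb histone methyltransferase of dividing cells, fell to 6.22 ± 0.20 log2 units with doxycycline, against 7.58 ± 0.03 in control cells (SD, n = 5, log2 fold change -1.36 ± 0.10, adjusted p = 2.94e-08). PHF19 (-0.76 ± 0.10), CBX6 (-0.67 ± 0.09) and RBBP4 (-0.30 ± 0.08) fell too. RING1, an H2A ubiquitin ligase (0.77 ± 0.11), JARID2 (0.58 ± 0.10), EZH1, the paralogue of EZH2 in resting cells (0.39 ± 0.11), and PCGF5 (0.36 ± 0.09) rose most.

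Of 23 measured genes listed as keeping HOX genes active, 5 rose and 3 fell, or 34.8% called beside 38.1% of all probe sets. The list holds KMT2 complex genes, other histone enzymes and elongation factors, AFF1 and AFF4 among the last. AFF1 (0.76 ± 0.10), AFF4 (0.42 ± 0.08), KMT2D (0.41 ± 0.14) and KMT2B (0.37 ± 0.12) rose, and NSD2 (-0.75 ± 0.09), MLLT10 (-0.53 ± 0.14) and WDR5 (-0.45 ± 0.09) fell. KMT2A, the MLL gene whose fusions raise HOXA expression in leukaemia, had 0.20 (adjusted p = 0.0890), and its partner MEN1 had 0.21 (adjusted p = 0.0787), neither a call.

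Of 9 genes for insulation and restraint of the clusters, 2 rose and 2 fell, or 44.4% called beside 38.1% of all probe sets. Geminin, GMNN, a replication inhibitor that also binds HOX proteins, fell (-0.74 ± 0.11), as did the cohesin subunit SMC1A (-0.45 ± 0.08). The cohesin loader NIPBL (0.52 ± 0.14) and STAG2 (0.29 ± 0.09) rose. CTCF, which sets boundaries within the clusters, had a log2 fold change of -0.003 with a standard error of 0.09.

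Retinoic acid switches on 3′ HOX genes in embryos. Of 15 measured pathway genes 5 rose and 2 fell, or 46.7% called beside 38.1% of all probe sets. CRABP2, which carries retinoic acid to its receptors, rose to 5.78 ± 0.11 log2 units with doxycycline, against 4.17 ± 0.14 in control cells (SD, n = 5, log2 fold change 1.61 ± 0.09, adjusted p = 2.90e-09). The receptor RARA (0.80 ± 0.07), RARB (0.74 ± 0.13), itself a retinoic acid target and here under the dim mark, and the retinol receptor STRA6 (0.56 ± 0.12) rose. ALDH1A3, which makes retinoic acid (-1.46 ± 0.09), and the receptor RXRG (-1.27 ± 0.13) fell.

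Homeobox genes outside the clusters were called in 28 of 85 cases, 20 higher and 8 lower, beside the 38.1% of all probe sets. ONECUT1 (1.13 ± 0.15), the chromatin organiser SATB1 (0.92 ± 0.09), the melanocyte lineage gene PAX3 (0.88 ± 0.12) and ZHX2 (0.84 ± 0.10) rose most. EN2 (-1.59 ± 0.10), POU3F2, a factor of invasive melanoma (-1.44 ± 0.11), LHX1 (-0.99 ± 0.12) and HHEX (-0.84 ± 0.10) fell most. EN2 was under the dim mark in doxycycline-treated cells (2.72 log2 units). Averaged over all arrays, 28 of the 85 genes were under the mark. Among 8 ParaHox and EVX genes, 6 of them under the dim mark, EVX2 was the single call, or 12.5% beside 38.1% of all probe sets. In the MYC network 1 of 12 genes rose and 4 fell, or 41.7% called, beside the 38.1% of all probe sets. The riser was MYC (0.61 ± 0.10), whose RNA cannot be told apart here from an Omomyc transcript. The fallers were MGA, a repressor of germline genes (-1.26 ± 0.11), MXI1 (-0.88 ± 0.08), MLXIP (-0.55 ± 0.14) and MXD1 (-0.27 ± 0.10).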

How the data were processed

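RNA of 10 A375 samples was read on 1 array each. The authors deposited log2 values of 18569 probe sets and name RMA, per the submitters' processing notes, with no version or filter given in the sources used here. RMA usually equalises the arrays' distributions, so changes are relative to the other genes.

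Symbols came from the platform annotation, with 17511 probe sets named and 1058 unnamed here. All 23 HOX genes matched RefSeq by gene ID. Members and lists were chosen with earlier results of these data known, and no test was made over a list.

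One linear model per probe set was fitted in limma 3.58.1 (lmFit, eBayes; R 4.3.3) on all 10 arrays without a filter, two-sided, with Benjamini-Hochberg adjustment over all probe sets. The fit was checked on simulated data. Levels are mean ± SD over 5 arrays, and fold changes carry limma's SE. Values on every array were given for HOX genes called at 0.5 log2 units or more and for the 3 others with groups that did not overlap. Fold changes were given for up to 4 called genes per direction of each other list. Cell type markers did not follow this rule, and many were named without a fold change. Where a gene of a list had several probe sets, the brightest stood for it. Alternatives were other scalings, filters on dim probe sets, variance models, array weights, a replicate block, left-out arrays and an exact permutation test. Drawings used matplotlib 3.10.9.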

Additional observations from a re-analysis of the deposited data

How the results depend on the processing

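Calls of 13 of the 16 called HOX genes held in every alternative that tested them. HOXA2, HOXB5 and HOXC9 lost theirs in 3, 11 and 6 alternatives, and HOXB5 had p = 0.0556 in the exact two-sided permutation test. HOXA2 also lost its call with array weights (adjusted p = 0.126) and HOXB5 with a trended, robust variance (adjusted p = 0.0502). With each array centred, HOXD3, not called, turned to 0.00534, and leaving out single arrays took it between -0.117 and 0.0881 (0.0881 without control array 3, 0.00520 without doxycycline array 2 and 0.0137 without doxycycline array 3). Among probe sets above the median signal, 9 HOX genes were left, 5 higher and 3 lower, against 6 and 10 without a filter, and their median was 0.34. This filter drops about as many probe sets as it keeps. It left 5585 called probe sets of any gene, against 7078 without it. Most of the kept probe sets were thus called, a higher share than the 38.1% of all probe sets. With a fold of at least 2 required, 0 rose and 4 fell. Leaving out each array gave 6378 to 7237 called probe sets, 4 to 6 higher and 9 to 10 lower HOX genes, and a HOX median of -0.194 (without doxycycline array 4) to -0.0814. Whether the replicate numbers pair the arrays is not stated. Same-numbered arrays deviated with correlations of -0.44 to -0.01, and none correlated best with its own number. These correlations cannot settle whether the cultures were handled as pairs. The replicate block gave 6476 called probe sets, 4 higher and 10 lower HOX genes, with HOXB5 and HOXC9 lost (adjusted p = 0.0877 and 0.0575). No array stood apart from its group for any of the 23 genes by Dixon's gap test over 46 groups. The number of arrays limits what can be seen. So does signal near background for HOXB1, HOXD3 and HOXD10, and for HOXA2 and HOXD11 with doxycycline.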
